A study of Mus musculus with 4 samples.

Results

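The 78 mitochondrial ribosomal protein genes are the protein-coding genes whose mouse symbol starts with Mrpl or Mrps and a digit, chosen by name alone from 21887 nuclear protein-coding genes of a RefSeq table (GRCm38.p6, the assembly called mm10). Of these, 49 carry an Mrpl symbol (named for the large ribosomal subunit) and 29 an Mrps symbol (named for the small subunit). The symbol does not always match the place of the protein, as given below for Mrps18a, Mrps30 and Mrps36. In the vehicle list of m6A peaks 29 of the 78 (37.2%) carried at least 1 peak, against 40.2% of all protein-coding genes. In the entacapone list 54 (69.2%) did, against 49.1%. Of the member peaks found only in the entacapone list, most were of low enrichment. With the entacapone list alone shortened to the length of the vehicle list, by dropping its lowest folds, 29 (37.2%) and 21 (26.9%) members had a peak. The background was then 40.2% and 39.4%. This setting takes low-fold peaks from 1 side only.

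Mitochondria translate the few proteins that their own genome encodes, all core subunits of the respiratory chain and ATP synthase, on a ribosome of their own. Its RNA comes from the mitochondrial genome, while all its proteins are encoded in the nucleus, made in the cytosol and imported. In white fat, mitochondrial content accompanies adipocyte differentiation and falls in obesity. N6-methyladenosine (m6A) is an internal mark of messenger RNA, written by the METTL3 and METTL14 complex, removed by FTO and ALKBH5, and found most often near stop codons and in long internal exons.

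The tissue was inguinal white fat taken from obese male C57BL/6 mice, aged 23 weeks and fed a high-fat diet, that received either vehicle or entacapone, a catechol-O-methyltransferase inhibitor used in Parkinson's disease that has also been described as an FTO inhibitor. Fragmented poly(A) RNA was sequenced as input and after immunoprecipitation (IP) with an antibody against m6A, which gave 4 libraries, 1 of each kind. The dose, the length of treatment and the number of animals behind a library were not stated in the labels. With 1 library per kind there is no replicate and no test across samples, so each difference below lies between these libraries and has no replicate check.

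The vehicle and entacapone inputs held 24548212 and 33164576 gene-assigned counts, a ratio of 1.35, and the peak lists held 22860 and 31856 peaks, a ratio of 1.39. The lowest fold enrichment that a list contains was 1.58 for vehicle and 1.49 for entacapone. The part of depth and of this difference in the lowest fold in the results below was not tested. The input counts carry Ensembl identifiers that no table used here pairs with symbols, so RNA levels of the members were not analysed here. Peaks give no RNA level, so the tissue label was not checked by expression. Of 25 markers of fat and other cells 11 had a vehicle peak and 13 an entacapone peak, among them the adipocyte genes Plin1 (2 and 4 peaks), Cidec (2 and 3), Lep (2 and 2) and Pparg (3 and 6), but not Adipoq. Markers of B cells (Pax5, 4 and 9), leukocytes (Ptprc, 3 and 3), endothelium (Pecam1, 0 and 4; Cdh5, 0 and 5) and muscle (Myh1, 3 and 5; Myh4, 3 and 0) carried peaks as well, and their part in the results was not tested. In such a bulk tissue, fewer cells of a type and less RNA per cell cannot be told apart.

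The comparison of the peak lists asks where the m6A signal differed between the treatments. The count of members went from below the share of all protein-coding genes to above it: the background was 40.2% of protein-coding genes with a peak in the vehicle list and 49.1% in the entacapone list. Peaks in both lists were found for 27 members (34.6%, background 37.8%), peaks in the entacapone list alone for 27 (34.6%, background 11.3%), peaks in the vehicle list alone for 2 (2.56%, background 2.45%) and no peak in either list for 22 (28.2%, background 48.5%). With all peaks the symbol classes had similar shares. Of the 49 Mrpl genes 18 (36.7%) had a vehicle peak and 34 (69.4%) an entacapone peak. Of the 29 Mrps genes 11 (37.9%) and 20 (69.0%) did. At a fold of at least 2 the shares lay farther apart, at 18.4% and 32.7% of the Mrpl genes and 27.6% and 44.8% of the Mrps genes, and no test was run on this.

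The share of members with an entacapone peak lay above the background with all peaks and below it at a fold of at least 2. At a fold of at least 2, 17 members (21.8%) had a vehicle peak and 29 (37.2%) an entacapone peak, against 37.7% and 44.3% of all protein-coding genes. At that fold 14 of the 78 members were found only in the entacapone list and 2 only in the vehicle list (background 10.2% and 3.58%). The share found only in the entacapone list thus stayed above its background. At a fold of at least 4 only 7 (8.97%) and 8 (10.3%) members remained (background 19.1% and 21.3%). Of the 78 members 3 were found at that fold only under entacapone and 2 only under vehicle (background 8.63% and 6.48%). Both shares lay below their background. With the 22860 entacapone peaks of highest fold, as many as the vehicle list holds, the members numbered 29 (37.2%) for vehicle and 21 (26.9%) for entacapone. The background in the entacapone list was then 39.4%. In that setting 5 of the 78 members were found only under entacapone and 13 only under vehicle (background 7.31% and 8.15%). The entacapone share was then below its background and the vehicle share above it. This setting drops the low-fold peaks of the entacapone list and none of the vehicle list, so it bears unequally on members with low folds. With peaks at least 100 bp wide 15 (19.2%) and 32 (41.0%) members had a peak (background 30.6% and 37.8%). Of the 78 members 20 had one only under entacapone and 3 only under vehicle (background 9.96% and 2.81%). With this width both entacapone shares stayed above the background.

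**Figure D1:**
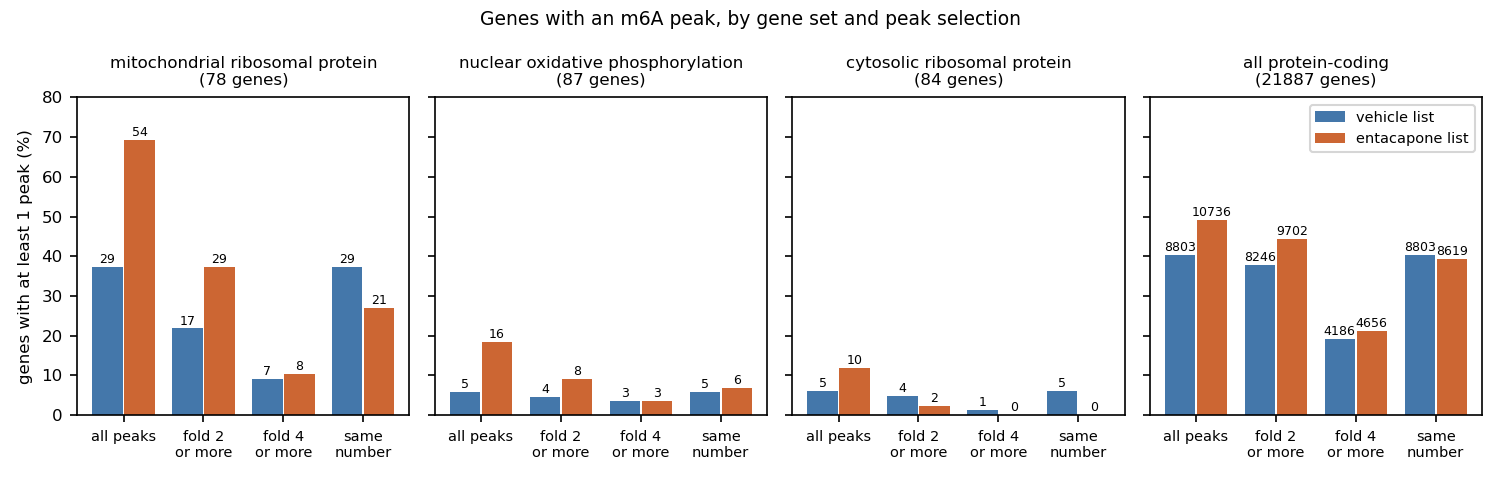
Share of genes with at least 1 m6A peak (vertical axis, percent) in the vehicle and the entacapone list for 4 gene sets, with all peaks, peaks of fold 2 or more, peaks of fold 4 or more, and with the entacapone list shortened to the length of the vehicle list. Numbers above the bars count genes. The mitochondrial ribosomal protein genes go from 29 to 54 with all peaks and from 29 to 21 when the entacapone list alone is shortened to equal length.

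The most similar gene sets carried far fewer peaks. Of 84 cytosolic ribosomal protein genes 5 had a vehicle peak (5.95%) and 10 an entacapone peak (11.9%), and of 87 genes for nuclear-encoded subunits of oxidative phosphorylation 5 (5.75%) and 16 (18.4%) did. The median gene span was 7690.5 bp for the mitochondrial ribosomal protein genes, 7131 bp for oxidative phosphorylation, 3169.5 bp for cytosolic ribosomal proteins and 17169 bp for all protein-coding genes. The oxidative phosphorylation genes had nearly the same median span and a smaller share of genes with peaks. No test was run on this difference, and the part of gene span, transcript length or RNA level in it was not tested. Within the mitochondrial ribosomal protein genes, the median span was 9841 bp for the 27 with peaks in both lists, 6061 bp for the 27 found only under entacapone and 8071.5 bp for the 22 without a peak.

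Most members carried a single peak. In the vehicle list 27 members had 1 peak and 2 had 2, Mrps5 and Mrpl19. In the entacapone list 42 members had 1 peak, 10 had 2 and 2 had 3, Mrpl15 and Mrpl33. In all, 34 members had more peaks in the entacapone list, 19 had equal numbers above 0, and 3 had fewer, namely Mrpl47, Mrpl10 and Mrpl19. The 31 vehicle peaks and 68 entacapone peaks of the members made 26 overlapping pairs, 1 in each of 26 genes. Of the 31 vehicle peaks 5 (16.1%) had no overlap in the other list, against 20.5% over all protein-coding genes, and of the 68 entacapone peaks 42 (61.8%) had none, against 43.0%.

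The 26 pairs are defined by their overlap, so their midpoints must lie close together. The median distance between them was 12.75 bp, against 19.5 bp for the pairs of all protein-coding genes, and the largest 93 bp, in Mrpl12, and 17 pairs lay within 20 bp. In 25 of 26 pairs the overlap covered at least 50% of the shorter peak, the exception being Mrps7 with 26 bp. The entacapone peak was the wider one in 19 pairs (73.1%, against 62.4% of 16779 pairs in all protein-coding genes), with a median width of 134.5 bp, against 101 bp for the vehicle peaks. Over all protein-coding genes these medians were 160 bp and 137 bp. The pair in Mrpl41 measured 80 bp and 351 bp, that in Mrpl12 62 bp and 244 bp, and that in Mrps2 252 bp and 389 bp. The pair in Mrps7 went the other way, with 112 bp and 70 bp.

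**Figure D2:**
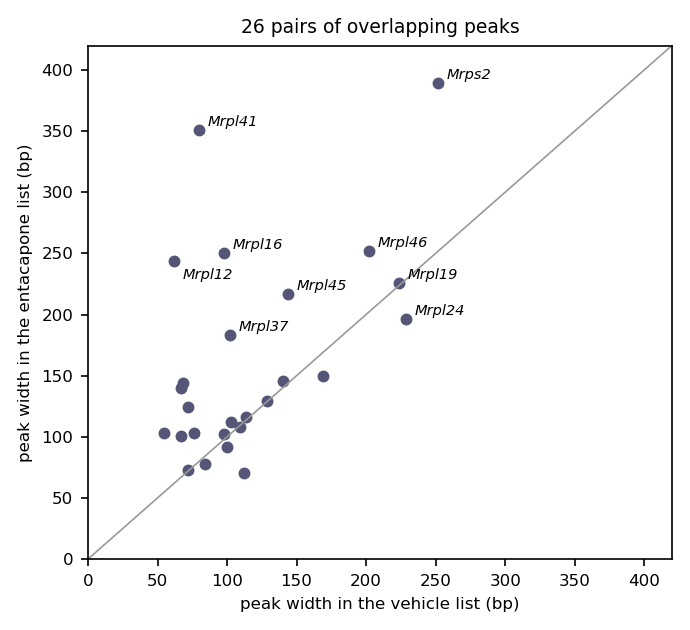
Width of each of the 26 overlapping peak pairs in mitochondrial ribosomal protein genes, in the vehicle list (horizontal axis, bp) and in the entacapone list (vertical axis, bp); the line marks equal width. Of the 26 points 19 lie above the line, with Mrpl41 at 80 and 351 bp farthest from it.

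The folds that follow are the authors' values, which rank peaks within a list; a fold in 1 list is set beside the fold in the other without a comparison of size, since each list has its own scale. The member peak of largest fold in the entacapone list lay in Mrpl3, a large subunit protein whose bacterial counterpart reaches towards the peptidyl transferase centre. Its vehicle peak, at 105067538 to 105067606 on chromosome 9, had a fold of 5.56 and the overlapping entacapone peak, at 105067464 to 105067608, a fold of 7.94, percentiles 86.0 and 98.2 of their lists. Mrps31, a small subunit protein found only in mitochondrial ribosomes, held the vehicle peak of largest fold, 7.23 (chromosome 8, 22410883 to 22410967, percentile 95.3), and its entacapone peak had a fold of 3.31. These peaks lay 476 bp and 494 bp from the start of the gene span, and ended before the promoter window described below, which begins at 22411090. Mrps11, a conserved small subunit protein, carried peaks of fold 5.53 and 5.91 within 63 bp of the gene's end (chromosome 7, 78792890 to 78792962 in the vehicle list), at percentiles 85.8 and 91.8.

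Other members with a peak of at least fold 4 in both lists were Mrpl15 (4.79 and 4.64) and Mrpl21 (4.45 and 4.34), both large subunit proteins with bacterial counterparts, and Mrps6 (4.73 and 4.79), whose peaks did not overlap. Mrpl15 gained 2 further entacapone peaks of fold 1.93 and 1.81. Mrpl19 had vehicle peaks of fold 4.55 and 3.87, of which the second alone overlapped an entacapone peak (3.26). Mrps15, whose bacterial counterpart binds ribosomal RNA early in assembly of the small subunit, had a peak near its start of fold 2.90 and 3.53, and a second entacapone peak of fold 1.86 at its end. Mrpl46 had folds of 2.69 and 3.88. Mrpl24, which lies beside the exit tunnel of the nascent chain, had folds of 3.57 and 2.62. Mrps2 had 2.61 and 2.47, Mrpl43 2.85 and 2.65, and Mrpl45, which helps to hold the ribosome at the inner membrane, 2.20 and 2.62. Mrpl43 had a second entacapone peak of fold 2.14. The peaks of these genes were neither the weakest nor the strongest of the set.

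A further group of members with peaks in both lists had shared peaks of lower fold, most of them under 2. Mrpl12, a protein of the stalk that recruits translation factors, had folds of 1.80 and 1.52. Mrpl41 had 1.79 and 1.60, Mrpl40 1.74 and 1.65, Mrpl14 1.74 and 1.67, Mrps7 1.66 and 1.66, Mrpl37 1.88 and 1.67, Mrpl16 1.71 and 1.88, Mrpl9 1.87 and 1.90 with a second entacapone peak of 1.70, and Mrps25 1.99 and 2.13. Mrpl44, which carries a ribonuclease III-like domain, had 1.89 and 2.19. Mrps28 had 1.82 and 1.94 with an additional entacapone peak of fold 2.93. Mrps5 had a shared peak of 1.75 and 1.67, a vehicle peak at its end (2.39) and an entacapone peak inside the gene (1.73), neither with an overlap. Mrps27, a pentatricopeptide repeat protein, had a shared peak of 2.49 and 1.98 close to its end and a second entacapone peak of 2.83 still closer to it.

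The 3 mammalian counterparts of the bacterial S18 protein, Mrps18a, Mrps18b and Mrps18c, all carried an entacapone peak. Mrps18a, whose protein sits in the large subunit despite its symbol, had a shared peak of fold 2.99 and 2.49 and an additional entacapone peak of fold 4.63. Mrps18c had 1 entacapone peak (2.54) and Mrps18b 1 (1.81), and neither had a vehicle peak. These genes are sequence relatives, and the lists do not say how reads with more than 1 place in the genome were handled. The 6 annotated Mrpl and Mrps pseudogenes held 0 peaks in both lists.

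The 27 members with peaks in the entacapone list alone carried 32 peaks, of median fold 1.81 and 20 of them under fold 2. Over all entacapone peaks without overlap in members, 25 of 42 (59.5%, exact binomial 95% interval 43.3 to 74.4, counting error only) were under fold 2, against 19.9% over all protein-coding genes. Low folds were also common among the members' vehicle peaks, of which 13 of 31 were under fold 2 (41.9%, 24.5 to 60.9), against 8.73%. The median member peak stood at percentile 24.6 of the vehicle list and 11.8 of the entacapone list. Low folds were thus more frequent among the members' peaks than among all peaks in protein-coding genes, in both lists. Under entacapone 36 of 68 member peaks (52.9%) were under fold 2. The like sets had such peaks as well, 10 of 19 in oxidative phosphorylation genes (52.6%) and 9 of 11 in cytosolic ribosomal protein genes (81.8%). In the vehicle list each like set had only 5 peaks, of which 1 (20%) was under fold 2.

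Some of these 27 genes held peaks of higher fold. Mrpl1, which forms the mobile stalk beside the exit site of spent transfer RNA, had the highest, 5.81 (chromosome 5, 96255279 to 96255336, percentile 91.3), well inside the gene. Mrpl33 had 3 peaks, of fold 3.49 near its start, 4.52 near its end and 1.64 at its end. A long noncoding RNA gene, Gm38424, spans the same positions, and the list cannot tell their transcripts apart. No other member peak had its midpoint in the span of a noncoding gene. Mrpl39, a large subunit protein related to threonyl-tRNA synthetase, had 1 peak of fold 3.30, and Mrpl57 1 of 2.75. Mrpl4 had 2.34, Mrps36 2.30, Mrpl49 2.08, Mrpl58 2.03 and Mrps24 2.01. Mrps23 had peaks of fold 2.08 and 1.63. Mrpl58 is a peptidyl-tRNA hydrolase that rescues stalled ribosomes, and Mrps36 encodes a protein now known as a subunit of the 2-oxoglutarate dehydrogenase complex.

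The remaining members with peaks in the entacapone list alone were all under fold 2. Among the Mrpl genes they were Mrpl27 (folds 1.96 and 1.91), Mrpl18 (1.81), Mrpl50 (1.80), Mrpl20 (1.77), Mrpl32 (1.73), Mrpl17 (1.70), Mrpl53 (1.63), Mrpl55 (1.63), Mrpl54 (1.58), Mrpl52 (1.58) and Mrpl51 (1.53). Among the Mrps genes they were Mrps35 (1.95), Mrps26 (1.73 and 1.60), Mrps34 (1.71) and Mrps30 (1.70), the last a protein that structures place in the large subunit. In the opposite direction, Mrpl47, which lies at the exit tunnel, had 1 vehicle peak of fold 2.57 (chromosome 3, 32727558 to 32727648) and Mrpl10, which anchors the stalk, 1 of 1.90 (chromosome 11, 97049081 to 97049149), with no entacapone peak. Both vehicle peaks lay at the gene's end, at 106 bp and 98 bp from it.

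**Figure D3:**
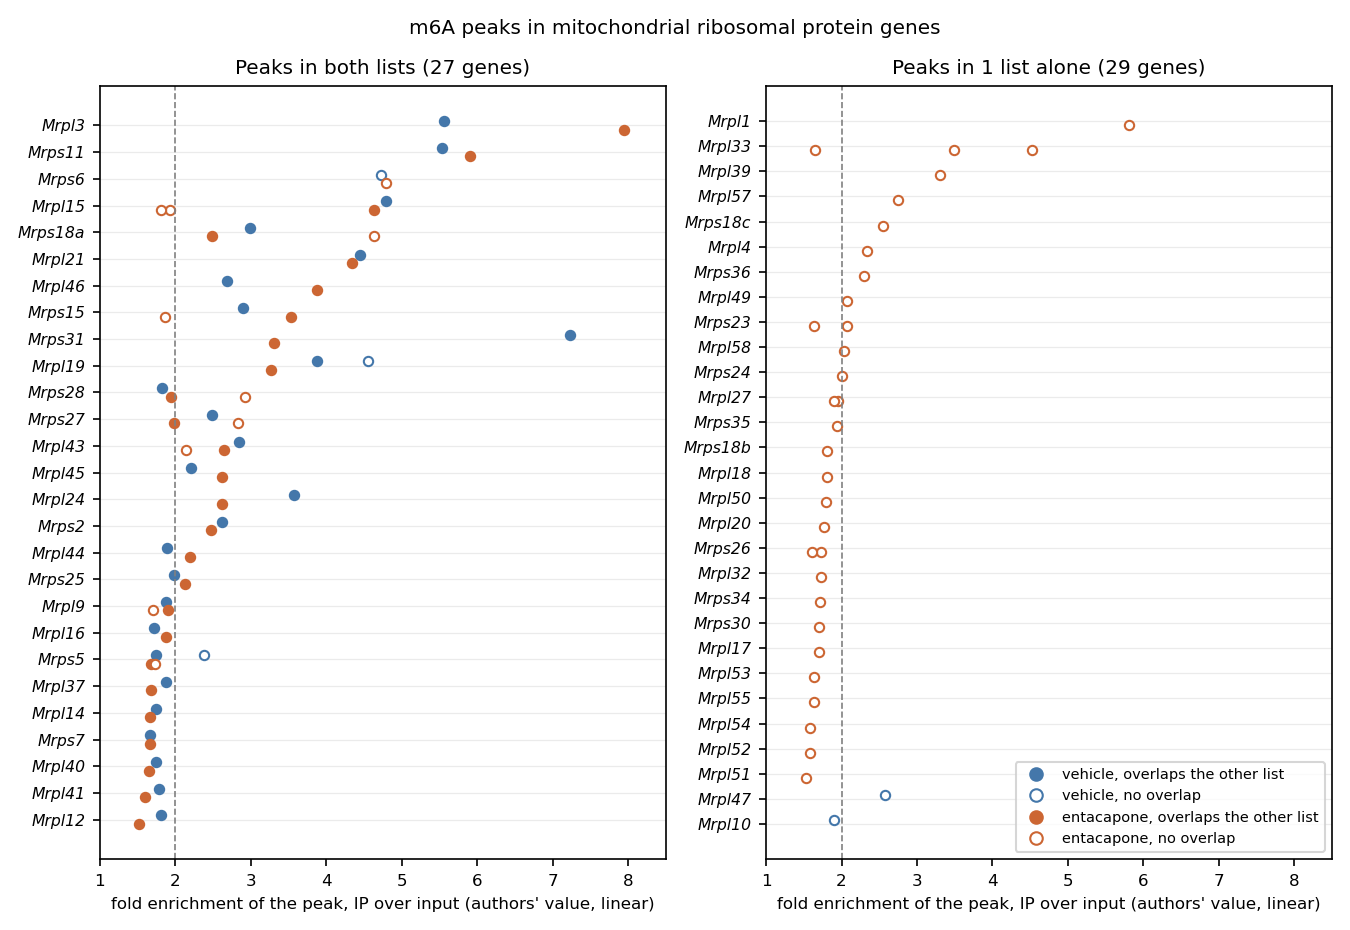
Fold enrichment (horizontal axis, linear, the authors' value) of each m6A peak in the 27 members with peaks in both lists (left) and in the 29 with peaks in 1 list alone (right). Filled points overlap a peak of the other list, open points do not, and the dashed line marks fold 2. Of the 32 entacapone peaks at right 20 lie below fold 2.

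No peak was listed in either library for 22 members, which does not show that their transcripts carry no m6A. They were Mrpl2, Mrpl11, Mrpl13, Mrpl22, Mrpl23, Mrpl28, Mrpl30, Mrpl34, Mrpl35, Mrpl36, Mrpl38, Mrpl42, Mrpl48, Mrps9, Mrps10, Mrps12, Mrps14, Mrps16, Mrps17, Mrps21, Mrps22 and Mrps33. They include conserved proteins of the ribosome's active sites, such as Mrps12 at the decoding centre and Mrpl2 at the peptidyl transferase centre, and Mrpl11 at the base of the stalk. Proteins of the stalk thus had a vehicle peak alone (Mrpl10), peaks in both lists (Mrpl12) and none (Mrpl11).

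Mrps6 needs separate mention because its span also holds Slc5a3, which encodes the myo-inositol transporter SMIT1. Slc5a3 starts 14 bp before Mrps6 on the same strand of chromosome 16 and ends inside it. Peaks in the common stretch were assigned to Slc5a3, the shorter gene, which held 4 vehicle and 6 entacapone peaks, of folds up to 6.69 and 7.40. Outside it Mrps6 had 1 vehicle peak (92109083 to 92109193, fold 4.73) and 1 entacapone peak (92106561 to 92106630, fold 4.79), 50802 bp and 48259.5 bp from the start of Mrps6. The 2 peaks did not overlap, so Mrps6 is the 1 member with peaks in both lists and no pair. Counting every midpoint in the Mrps6 span would give 35 vehicle and 74 entacapone peaks over all members in place of 31 and 68, with the same 29 and 54 members.

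**Figure D4:**
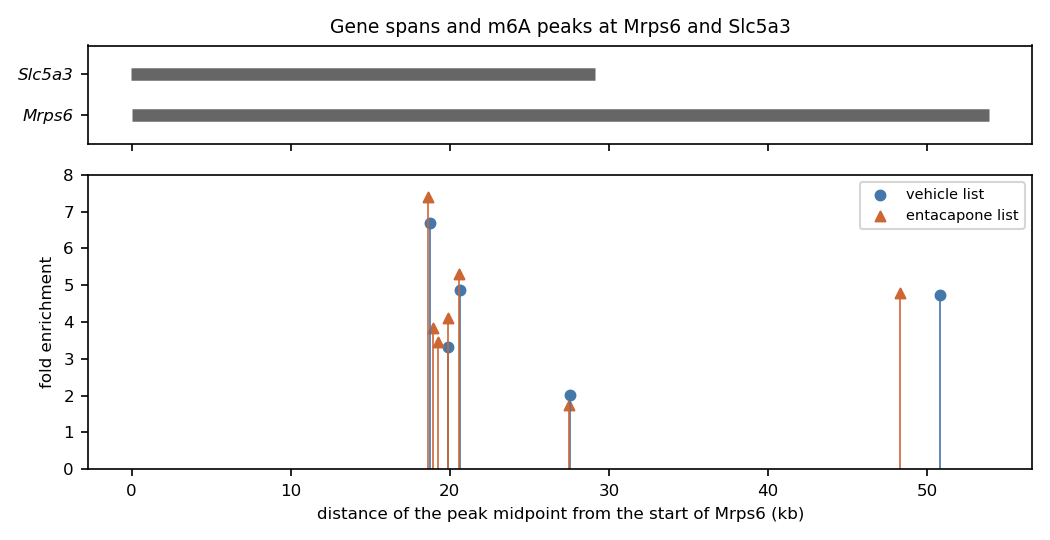
Spans of Mrps6 and Slc5a3 (top) and fold enrichment of each m6A peak (bottom) by its distance from the start of Mrps6 (horizontal axis, kb). The 10 peaks of the common stretch lie between 18 and 28 kb, and the Mrps6 peaks outside it at 50.8 kb (vehicle) and 48.3 kb (entacapone) do not overlap.

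More than 50% of the member peaks with a known strand lay in the last 20% of the gene span, the 3′ side, a share near that of all protein-coding genes. The strand was known for 69 members through a table of RefSeq promoters, and their peaks numbered 27 in the vehicle list and 58 in the entacapone list. In the last 20% of the gene span lay 14 vehicle peaks (51.9%, exact binomial 95% interval 31.9 to 71.3) and 33 entacapone peaks (56.9%, 43.2 to 69.8), and in the first 20% lay 3 (11.1%) and 8 (13.8%). Over all protein-coding genes with a known strand the last 20% held 50.6% and 48.8% of the peaks and the first 20% held 15.6% and 17.3%. Of the member peaks in the entacapone list alone 23 of 35 (65.7%, 47.8 to 80.9) were in the last 20%, against 42.8% over all protein-coding genes. Of the shared member peaks 10 of 23 (43.5%) were there in each list, against 53.4% (vehicle) and 53.3% (entacapone). Of all entacapone peaks with a known strand, the last 20% held 6 of 10 (60%) for cytosolic ribosomal protein genes. For oxidative phosphorylation genes it held 3 of 18 (16.7%). No test was run on these differences.

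In absolute distance, and without regard to strand, most member peaks were at most 1 kb from an end of the gene. This was so for 18 of the 31 vehicle peaks (58.1%, 39.1 to 75.5) and for 47 of the 68 under entacapone (69.1%, 56.7 to 79.8), against 26.9% and 28.0% over all protein-coding genes. The stretches within 1 kb of an end make up on average 27.0% and 34.9% of the spans of the members' peaks, and 11.7% and 11.9% for all protein-coding genes. The last 1 kb held 33 of the 58 entacapone peaks with a known strand (56.9%) and the first 1 kb held 10 (17.2%), where an even spread would put 19.8% in each. Over all protein-coding genes with a known strand these shares were 17.4% and 11.3%, where an even spread would put 6.17% in each. Genes for oxidative phosphorylation had the reverse order, with 4 of 18 entacapone peaks (22.2%) in the last and 8 (44.4%) in the first 1 kb. Cytosolic ribosomal protein genes had the members' order, with 6 of 10 (60%) in the last and 3 (30%) in the first 1 kb. An even spread would put 19.2% in each for oxidative phosphorylation and 38.6% for cytosolic ribosomal proteins. Introns are part of these spans and exon positions were not used here, so the place of exons and of reads within the spans was not tested.

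**Figure D5:**
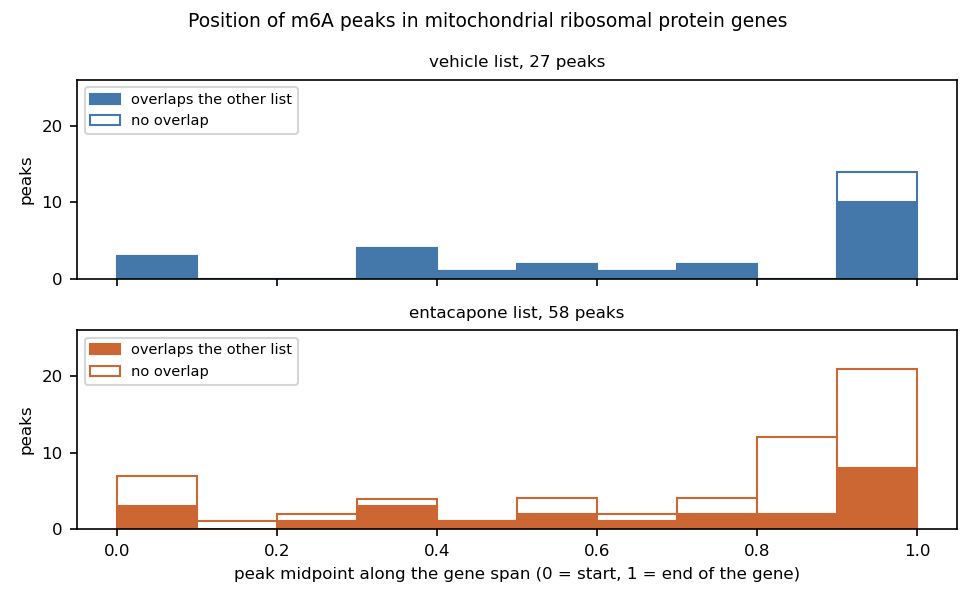
Number of m6A peaks (vertical axis) by the position of the midpoint along the gene span (horizontal axis, 0 at the start and 1 at the end of the gene) for members with a known strand, 27 vehicle and 58 entacapone peaks. Filled bars overlap a peak of the other list, open bars do not. The last 20% of the span holds 14 and 33 peaks.

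A smaller number of peaks lay close to the start of the gene span, from which distances are given here. Within 500 bp of the start these were, in both lists, in Mrpl37 (143 bp and 152.5 bp from the start), Mrps15 and Mrps31, and in the entacapone list also in Mrpl27 (82.5 bp), Mrpl58 (100 bp) and Mrpl33 (132.5 bp). The RefSeq promoter window runs from 250 bases before to 50 after a RefSeq start, which can differ from the start of the span. In Mrps31 both peaks lay before this window. The peaks of Mrpl27, at 94653824 to 94653881 on chromosome 11, and of Mrpl58, at 115403796 to 115403852, reached into their windows by 17 bp and 6 bp. These were the only peaks assigned to members that did so. The windows of Mrpl43 and Mrpl21 overlapped peaks of their divergent neighbours Twnk and Ighmbp2, and that of Mrpl55 overlapped a pair of peaks outside any protein-coding span (folds 4.14 and 4.30).

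The promoters of the set share sequence features that the symbols do not depend on. Of the 69 members with a promoter window, 26 (37.7%) held the core motif of ETS factors such as GABP, CCGGAAG, on either strand, against 12.9% of 17492 protein-coding genes with a window. The YY1 motif AAGATGGCG was in 8 (11.6%, against 2.14%), and the palindromic NRF1 motif, GCGCA followed directly by TGCGC, in 3 (4.35%, against 1.47%). At least 1 of the 3 motifs was in 35 members (50.7%, against 15.7%), and in 48.4% of cytosolic ribosomal protein genes and 37.1% of oxidative phosphorylation genes. The members did not lead for each motif: ETS was in 39.1% of the cytosolic and 24.3% of the oxidative phosphorylation genes, NRF1 in 3.13% and 7.14%, and YY1 in 6.25% and 10.0%. The median window held 21 CG dinucleotides, against 13 over all protein-coding genes, 21 in cytosolic ribosomal protein genes and 19 in oxidative phosphorylation genes. By peak class, the ETS motif was in 13 of 23 members with peaks in the entacapone list alone, in 5 of 24 with peaks in both lists and in 8 of 20 with none. In the same order of classes the YY1 motif was in 1, 4 and 3 members and the NRF1 motif in 2, 1 and 0. These are matches of letters, not binding sites, and no test was run on them.

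The following windows of GRCm38.p6, credited to RefSeq, are shown 5′ to 3′ on the gene's strand, with motif matches in capitals. The windows of Mrpl58 and Mrpl27 are shown because an entacapone peak reaches into them, and that of Mrps27 because it holds both an ETS and a YY1 match. That of Mrps11 is shown because it holds the starts of a pair of members, and that of Mrpl39 for its NRF1 match. They lie at chr11:115403502-115403801 (+), chr11:94653541-94653840 (+), chr13:99344536-99344835 (+), chr7:78782881-78783180 (+) and chr16:84735195-84735494 (-), respectively.
Mrpl58: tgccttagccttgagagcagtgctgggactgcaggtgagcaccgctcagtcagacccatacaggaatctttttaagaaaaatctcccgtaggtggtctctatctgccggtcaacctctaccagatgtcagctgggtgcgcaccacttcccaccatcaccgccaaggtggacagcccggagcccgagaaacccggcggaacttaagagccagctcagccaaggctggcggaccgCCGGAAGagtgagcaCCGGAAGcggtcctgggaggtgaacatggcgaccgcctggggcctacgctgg
Mrpl27: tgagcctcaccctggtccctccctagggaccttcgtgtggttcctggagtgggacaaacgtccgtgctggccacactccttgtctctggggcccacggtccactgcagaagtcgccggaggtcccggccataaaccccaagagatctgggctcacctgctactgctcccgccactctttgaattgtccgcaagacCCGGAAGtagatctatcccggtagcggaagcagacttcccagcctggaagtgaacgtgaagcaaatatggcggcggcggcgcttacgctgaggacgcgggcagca
Mrps27: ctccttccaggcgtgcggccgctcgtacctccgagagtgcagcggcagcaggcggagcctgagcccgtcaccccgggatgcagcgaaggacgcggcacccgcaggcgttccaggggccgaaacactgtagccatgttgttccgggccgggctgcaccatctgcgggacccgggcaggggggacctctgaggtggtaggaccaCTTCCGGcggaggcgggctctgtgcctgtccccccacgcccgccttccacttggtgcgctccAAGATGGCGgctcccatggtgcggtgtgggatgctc
Mrps11: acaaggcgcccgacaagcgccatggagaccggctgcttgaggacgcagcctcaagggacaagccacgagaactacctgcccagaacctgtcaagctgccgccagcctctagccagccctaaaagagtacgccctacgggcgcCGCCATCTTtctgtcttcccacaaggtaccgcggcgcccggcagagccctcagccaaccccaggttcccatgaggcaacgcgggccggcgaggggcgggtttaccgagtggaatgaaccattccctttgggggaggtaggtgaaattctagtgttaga
Mrpl39: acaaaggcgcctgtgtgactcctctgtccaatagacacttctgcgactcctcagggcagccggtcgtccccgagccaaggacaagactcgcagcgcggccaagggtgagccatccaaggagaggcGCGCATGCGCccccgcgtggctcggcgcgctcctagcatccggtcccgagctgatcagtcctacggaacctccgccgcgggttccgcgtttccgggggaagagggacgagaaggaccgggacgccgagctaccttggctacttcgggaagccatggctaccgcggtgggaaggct

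Positions here are from the RefSeq start of the window. Mrpl58 has 2 ETS matches, which begin 17 and 2 bases before its start, and Mrpl27 has 1, which begins 55 bases before its own. In Mrps27 the ETS match lies on the opposite strand before the start and the YY1 match after it.

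Many members stand head to head with another gene. Of the 69 with a window, 24 (34.8%) had the start of an oppositely directed protein-coding gene within 1 kb, against 8.48% of protein-coding genes, 27.1% of oxidative phosphorylation genes and 14.1% of cytosolic ribosomal protein genes. The closest pair was Mrpl21 and Ighmbp2, 32 bp apart. Mrpl46 and Mrps11 are members with starts 42 bp apart, so that the window printed for Mrps11 covers both starts. The window of Mrpl46 itself overlaps it in part and held 0 motif matches. Each of these members carried 1 shared peak at its far end (2.69 and 3.88 in Mrpl46, 5.53 and 5.91 in Mrps11). Mrpl43 stands 116 bp from Twnk, the helicase that copies mitochondrial DNA, which held 5 vehicle and 6 entacapone peaks. Of the members 20 overlap the span of another protein-coding gene in some part, but none of the 99 peaks assigned to members had its midpoint in a second protein-coding span.

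Genes of mitochondrial translation, genes for transcription and copying of mitochondrial DNA, and nuclear regulators of mitochondrial genes were described from 6 lists of 83 genes. Of the 83, 61 (73.5%) had a vehicle peak and 67 (80.7%) an entacapone peak, against 40.2% and 49.1% of all protein-coding genes. Peaks in both lists were found for 56 (67.5%, background 37.8%), only under entacapone for 11 (13.3%, background 11.3%) and only under vehicle for 5 (6.02%, background 2.45%). The last were Dap3, Aurkaip1, Gfm2, Mterf3 and Esrra, with 1 peak each, named after their values were seen. Of 5 ribosomal proteins under other symbols 3 had a vehicle and 2 an entacapone peak: Ptcd3 had 1 in each, Dap3 and Aurkaip1 1 vehicle peak each (folds 2.55 and 3.49) and Gadd45gip1 1 entacapone peak (1.66). Of 16 translation factors 10 and 12 had a peak, among them the initiation factors Mtif2 (1 and 3 peaks) and Mtif3 (2 and 2), the release factor Mtrf1 (1 and 3) and the insertase Oxa1l (1 and 2). Of 24 ribosome assembly genes 20 and 21 had a peak, with 4 and 4 in the helicase gene Ddx28, 3 and 3 in Rcc1l and 2 and 3 in Gtpbp10.

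Of 20 genes for mitochondrial aminoacyl-tRNA synthetases and the related glutamine amidotransferase, 13 and 17 had a peak, with Pars2 at 4 and 5, Wars2 at 4 and 3 and Ears2 at 2 and 3. Of 10 genes for transcription and copying of mitochondrial DNA, 7 and 8 had a peak, with Polrmt, the RNA polymerase, at 2 and 4 and Tfam, the packaging and initiation factor, at 1 and 1. All 8 nuclear regulators had a vehicle peak and 7 an entacapone peak. Nrf1 had 4 and 6 peaks, Ppargc1a 2 and 6, Gabpb1 2 and 4 and Gabpa 2 and 2. Genes with peaks only under entacapone thus numbered 11 of 83 in these lists and 27 of 78 among the ribosomal proteins, with no test of the difference. The median spans of the lists ranged from 3201 bp to 42211 bp.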

How the data were processed

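Per the labels' protocols, fragmented poly(A) RNA was immunoprecipitated with a polyclonal m6A antibody, and TruSeq libraries were read on Illumina instruments. Per the submitters' processing notes TopHat2 2.1.1, MACS2 and mm10 were used; no source used here gives the peak thresholds or the counting tool. The deposited input values are raw read counts per Ensembl identifier, used here for depth alone. Each deposited peak list has positions and 1 unlabelled number, read as the authors' linear fold (ratio) of IP over input; the 0- or 1-based start is not stated, so positions are as deposited. Peaks were called per library.

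A peak went to the shortest protein-coding RefSeq span (GRCm38.p6) holding its midpoint. An overlap of 1 bp (bedtools 2.31.1) counted as shared. These steps were tested on simulated intervals. Intervals are exact binomial (SciPy 1.17.1) and cover counting error only; depth behind single peaks is unknown. Every member with a peak is named, as are up to 6 genes per list. The planned input comparison was not run, because identifiers could not be paired with names. The list entry Ict1 is Mrpl58, a member, and Trmt61b was not matched. Members and lists were chosen with earlier results of these data known.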

Additional observations from a re-analysis of the deposited data

How the results depend on the processing

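Of 30 alternative values, 12 stayed within 1.5 times the reported count and 18 moved further. At a fold of at least 2 the members with a peak numbered 17 (vehicle) and 29 (entacapone), and member peaks numbered 13 shared in each list and 19 in the entacapone list alone. At fold 4 or more there were 7 and 8 members, 4 shared peaks in each list, and 3 vehicle and 4 entacapone peaks alone. With the entacapone list shortened to the length of the vehicle list, 21 members had an entacapone peak, 13 peaks were shared in each list, and 18 vehicle and 10 entacapone peaks stood alone. With peaks at least 100 bp wide, 15 and 32 members had a peak. Each of these settings uses fewer peaks. Assignment by any overlap with the span, by midpoint whatever other span holds it, overlap of at least 50% of the shorter peak and a distance of 500 bp kept the counts within that margin. The planned settings for the input (size factors, count filter, prior, 99% interval) were not run, since no member was paired with its counts. No paired analysis was possible because each kind has 1 library.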
